A study of Homo sapiens with 9 samples.

Results

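The genes described here are 10 of 56541 in the deposited table and encode the NF-κB transcription factors and the proteins that hold them back. They were taken by symbol and comprise 5 subunit genes (NFKB1, NFKB2, RELA, RELB and REL) and 5 genes grouped here as inhibitors (NFKBIA, NFKBIB, NFKBIE, NFKBIZ and TNFAIP3). Each symbol matched 1 gene, and all 10 passed the filter on low counts in both comparisons. The cells were MOLM-13, an established human line of acute myeloid leukaemia. RNA was measured in 9 libraries: 3 of cells carrying a control short hairpin (shCONTROL), 3 where the hairpin targets BCLAF1 (shBCLAF1), and 3 of RNA recovered by immunoprecipitating BCLAF1 from shCONTROL cells (RIP). BCLAF1 is a nuclear RNA-binding protein. All 9 samples, controls included, had received 200 ng/µL doxycycline for 4 days. The RNA-seq samples came from 2000000 cells each and the RIP samples from 15000000. The labels name no mock precipitation, do not say how many hairpin sequences or clones lay behind a group, and do not say whether replicates were separate cultures, so the p-values measure the spread between these libraries, which may be technical.

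NF-κB factors are dimers of Rel-family subunits that wait in the cytoplasm, bound by inhibitor of κB (IκB) proteins. Signals from receptors for tumour necrosis factor, interleukin-1 or microbial products activate the IκB kinase complex, the IκB proteins are degraded, and the freed dimers enter the nucleus. Among the genes they switch on are several of their own inhibitors, a negative feedback that ends the response. In myeloid cells the pathway controls inflammatory cytokines, survival genes and parts of maturation.

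The libraries held 25819144 to 36635268 estimated counts. The member with the fewest counts in any library was NFKB2, at 35 in RIP replicate 3, and no other value of a member was under 222. The level of a gene is given in CPM, its count per library scaled to a common total after TMM, a normalization that aligns most genes between libraries. Levels are compared only within a gene, because transcript lengths were not used here. BCLAF1, the targeted gene, averaged 322 ± 8.40 CPM in the controls (SD, n = 3) and 113 ± 12.5 CPM (SD, n = 3) after knock-down, and no shBCLAF1 library overlapped a control. Its log2 fold change was -1.50 (adjusted p 2.06e-04). All 8 markers chosen for myeloid leukaemia cells were above 3 counts in every library. The T-cell markers CD3E and CD8A, the B-cell marker MS4A1, the red-cell marker HBB, the platelet marker PF4, the epithelial marker EPCAM and all 3 fibroblast markers were at 0 in all 9. Of the endothelial markers, PECAM1, which leukocytes also express, measured 182 to 662 CPM, and KDR and CDH5 were at 0.

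After BCLAF1 knock-down, RELB, NFKBIA and NFKBIE rose, TNFAIP3 fell, and the other 6 members did not pass the test. The changes were moderate, at 1.67-fold for RELB, 1.48-fold for NFKBIA, 1.45-fold for NFKBIE and 0.683-fold for TNFAIP3. A member passed when its p-value, from edgeR's quasi-likelihood test with Benjamini-Hochberg adjustment over all 16961 genes tested, was under 0.05. Of all genes tested, 15.5% passed as higher and 16.9% as lower, 32.3% in either direction, beside 3 and 1 of the 10 members. The members' median log2 fold change was 0.13, against 0.02 for all genes tested. The shBCLAF1 and shCONTROL libraries did not overlap for 5 of the 10 members, and 49.3% of all genes tested were separated in that way.

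**Figure D1:**
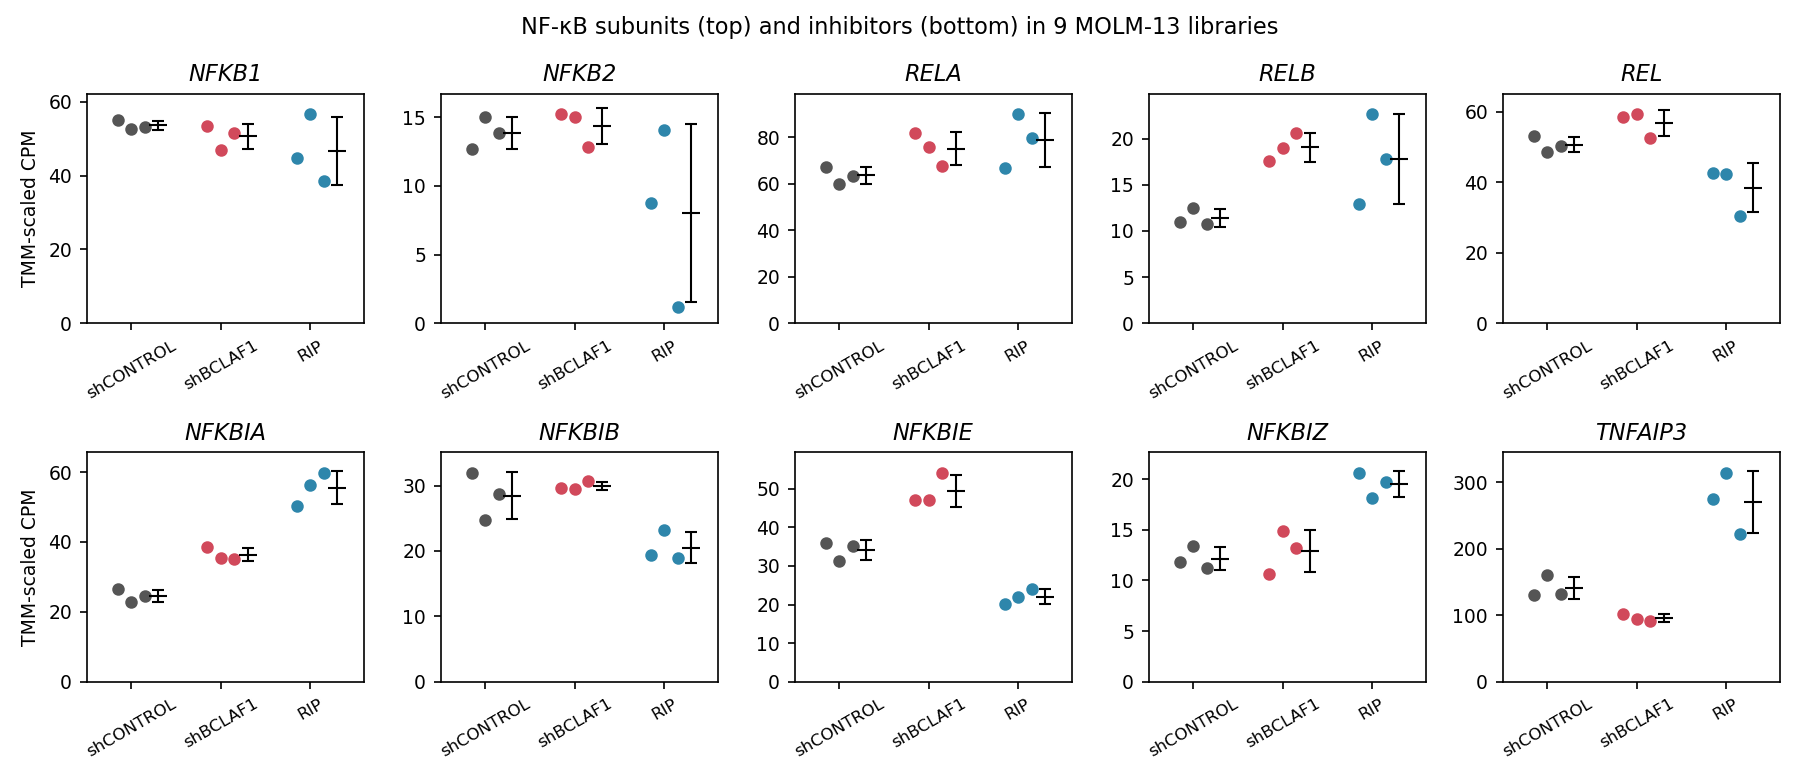
Level of each member in every library, as TMM-scaled CPM on an axis that starts at 0. Points are libraries in replicate order, and the black mark beside them is the mean with its SD (n = 3). NFKBIA rises from shCONTROL to shBCLAF1 and stands higher still in the RIP, whereas TNFAIP3 is lower in shBCLAF1 and higher in the RIP.

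Among the subunits, RELB (ENSG00000104856, chr19:45001464-45038192 in GRCh38.p14) was the gene that passed. Its protein pairs with the p52 product of NFKB2 in the slower, non-canonical branch of the pathway. RELB measured 11.0, 12.5 and 10.7 CPM in shCONTROL replicates 1, 2 and 3, and 17.6, 19.0 and 20.6 in the shBCLAF1 replicates. Every shBCLAF1 library was thus above every control. The means were 11.4 ± 0.975 and 19.0 ± 1.53 CPM (SD, n = 3 each), which gave 0.74 as the log2 fold change (adjusted p 0.00259, SE 0.099). It passed in all 12 alternative fits, with adjusted p from 1.19e-07 to 0.0387, and 6.46% of the genes tested had a higher fold change.

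RELA encodes p65, the subunit that carries the transactivation domain of the canonical p50-p65 dimer. It measured 67.3, 60.0 and 63.3 CPM in shCONTROL and 81.8, 75.6 and 67.5 in shBCLAF1. The groups did not overlap, by a margin of less than 1 CPM between shBCLAF1 replicate 3 and shCONTROL replicate 1. Its log2 fold change of 0.24 (95% interval 0.04 to 0.44) did not pass (adjusted p 0.0703). It passed without shBCLAF1 replicate 3 (0.0219), with DESeq2 (0.0397) and with total counts in place of TMM (0.0239), within a range of 0.0219 to 0.246 over 12 alternatives. REL, which encodes c-Rel, a subunit most prominent in blood cells, measured 53.1, 48.7 and 50.3 CPM in shCONTROL and 58.5, 59.3 and 52.6 in shBCLAF1. Here the lowest shBCLAF1 library lay within the control range, and the log2 fold change of 0.17 (95% interval 0.01 to 0.32) did not pass (adjusted p 0.0995). It passed without shBCLAF1 replicate 3 (0.0283) and with total counts (0.0284), in a range of 0.0283 to 0.503.

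Both genes that encode precursor subunits gave values close to the controls. NFKB1, the source of p105 and p50, measured 55.1, 52.7 and 53.3 CPM in shCONTROL and 53.5, 47.0 and 51.6 in shBCLAF1. Its log2 fold change was -0.08 (95% interval -0.22 to 0.06, adjusted p 0.366). NFKB2, the source of p100 and p52, measured 12.7, 15.0 and 13.8 CPM against 15.2, 15.0 and 12.8, with a log2 fold change of 0.06 (95% interval -0.20 to 0.31, adjusted p 0.735). For both genes the groups overlapped, and no alternative fit passed.

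NFKBIA (ENSG00000100906, chr14:35401513-35404749) encodes IκBα, the inhibitor that is degraded and resynthesized fastest and that carries nuclear p65 back to the cytoplasm. It measured 26.5, 22.8 and 24.4 CPM in shCONTROL and 38.5, 35.4 and 35.1 in shBCLAF1. The lowest shBCLAF1 library exceeded the highest control by more than the range of either group. The log2 fold change was 0.57 (adjusted p 0.00251, SE 0.075), and all 12 alternatives passed (5.90e-08 to 0.0136). NFKBIE (ENSG00000146232, chr6:44258166-44265551) encodes IκBε, a slower inhibitor that binds dimers with p65 or c-Rel. It measured 35.9, 31.2 and 35.1 CPM in shCONTROL and 47.0, 47.0 and 54.0 in shBCLAF1, again with every shBCLAF1 library above every control. The log2 fold change of NFKBIE was 0.54 (adjusted p 0.00448, SE 0.083; 1.49e-06 to 0.0203 over 12 alternatives, all of which passed).

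TNFAIP3 (ENSG00000118503, chr6:137866349-137883312) encodes A20, a ubiquitin-editing enzyme that shuts off signalling upstream of the IκB kinases. Unlike NFKBIA and NFKBIE it fell. Its level was 131, 160.0 and 131 CPM in shCONTROL and 102, 94.6 and 90.9 in shBCLAF1, so that every shBCLAF1 library was under every control. The means were 141 ± 16.6 and 95.9 ± 5.70 CPM (SD, n = 3 each), which gave -0.55 as the log2 fold change (adjusted p 0.00630, SE 0.094). All 12 alternatives passed (2.10e-07 to 0.0335), and without shCONTROL replicate 2, the highest control, the log2 fold change was -0.44. RefSeq places the noncoding gene WAKMAR2 over the start of TNFAIP3, and whether the counting used strand is not given in the sources used here. WAKMAR2 held 122 to 303 counts in the RNA-seq libraries, against 3335 to 5406 for TNFAIP3.

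The remaining inhibitors did not pass after knock-down. NFKBIB encodes IκBβ, which binds the same dimers as IκBα with slower turnover. It measured 31.9, 24.7 and 28.7 CPM in shCONTROL and 29.7, 29.4 and 30.7 in shBCLAF1 (log2 fold change 0.08, 95% interval -0.16 to 0.32, adjusted p 0.602). NFKBIZ encodes IκBζ, a nuclear member of the family that binds p50 at DNA and can activate as well as repress genes. It measured 11.9, 13.4 and 11.2 CPM against 10.7, 14.9 and 13.2 (log2 fold change 0.09, 95% interval -0.26 to 0.44, adjusted p 0.686). In both genes the groups overlapped. The coding gene NXPE3 overlaps the first bases of NFKBIZ in RefSeq and held 0 to 289 counts in shCONTROL and 67 to 1080 in shBCLAF1, against 404 to 452 and 406 to 562 for NFKBIZ; the part of its reads in the NFKBIZ values was not tested.

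Myeloid maturation markers moved with the knock-down too. Of 17 such markers tested, 10 were higher and 1, ITGAX, was lower after knock-down (15.5% and 16.9% of all genes tested). The summed level of the 21 listed was 4222 to 4821 CPM in shCONTROL and 7821 to 8149 in shBCLAF1, with 4 and 3 of them at 0 in every library of the group. LYZ alone averaged 729 CPM in shCONTROL and 2637 in shBCLAF1, so the sum mostly follows abundant markers. S100A9 (log2 fold change 3.61), CYBB (2.64) and LYZ (1.86) had the smallest adjusted p-values (7.97e-05 to 1.19e-04). Their part in the changes of the NF-κB genes was not tested. In bulk RNA, a change in the number of cells of one kind and a change in RNA per cell cannot be told apart.

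Several members are known targets of NF-κB itself, so the bases before their starts are shown here for motif matches. The κB decamer, the classical consensus for Rel-family dimers, was searched on both strands in the 250 bases before each start in RefSeq's GRCh38.p14 promoter table. The table matched 8 of the 10 members, with 14 start sites. RELB and NFKBIE were not matched. A match occurred before at least 1 start of 7 of the 8 genes, RELA being the exception, and in 9.96% of all 35116 windows of that length. Counted by gene, 11.8% of 27305 symbols had one before at least 1 start. The whole window of NFKBIA, which rose after knock-down and was higher in the RIP than in control RNA, is given first (chr14:35404750-35404999, minus strand), in lower case with the match in capitals.
NFKBIA: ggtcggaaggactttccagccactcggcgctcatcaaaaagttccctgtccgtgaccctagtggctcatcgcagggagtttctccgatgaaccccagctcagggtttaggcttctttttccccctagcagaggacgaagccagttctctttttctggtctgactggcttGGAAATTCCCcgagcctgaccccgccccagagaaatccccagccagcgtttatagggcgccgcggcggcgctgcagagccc

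The match of NFKBIA began 81 bases before the start. Short stretches around the matches of other members follow, to set TNFAIP3, which fell, beside genes that did not pass the test. They lie at chr6:137867188-137867217 for TNFAIP3, chr4:102501300-102501329 for NFKB1, chr2:60881518-60881547 for REL and chr3:101827757-101827786 for NFKBIZ, all on the plus strand. TNFAIP3 has 2 matches, separated by a pair of bases, and the run in REL is a pair of overlapping matches on opposite strands.
TNFAIP3: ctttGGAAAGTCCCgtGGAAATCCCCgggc
NFKB1: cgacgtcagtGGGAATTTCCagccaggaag
REL: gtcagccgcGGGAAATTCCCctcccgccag
NFKBIZ: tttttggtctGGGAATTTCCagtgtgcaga

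A match was therefore found in genes that rose, fell and did not pass. It is a description of the letters and not evidence of a bound site.

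The RIP was compared with shCONTROL RNA-seq, to ask which transcripts were recovered with BCLAF1 beyond their share of the cells' RNA. NFKBIA, TNFAIP3 and NFKBIZ were higher in the RIP and NFKBIE and NFKBIB lower, so that all 5 inhibitors passed the test, in both directions, although NFKBIB lost its call in 5 of 12 alternatives. None of the 5 subunits passed in the edgeR fit reported here, although REL and RELB had an unadjusted quasi-likelihood p under 0.05 (0.0359 and 0.0278). REL passed in 5 and RELB in 4 of 12 alternative fits, with DESeq2 and with other edgeR settings. RELA and NFKB1 each passed in 1. Whether inhibitors and subunits differ in recovery was not tested. Over all 16727 genes tested, the RIP exceeded the control for 24.6% and fell short for 24.7%, 49.2% in either direction, beside 3 and 2 of the 10 members. The RIP and control libraries were separated without overlap for 7 of the 10 members and for 67.0% of all genes tested. The members thus passed about as often as genes in general. A log2 fold change of at least 1 as well was reached by NFKBIA alone among the members, and in 11.0% of all genes tested on the higher and 13.5% on the lower side. With total RNA as the reference in place of a mock precipitation, recovery of RNA with BCLAF1 and background of the precipitation cannot be told apart.

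NFKBIA had the highest RIP fold change among the members. It measured 50.4, 56.3 and 59.7 CPM in RIP replicates 1, 2 and 3, all more than 20 CPM above the highest control (26.5). The RIP mean of 55.5 ± 4.72 CPM (SD, n = 3) was 226% of the control mean. The log2 fold change was 1.17 (adjusted p 5.67e-04, SE 0.11; 7.76e-17 to 0.00767 over 12 alternatives), and 10.7% of genes tested had a higher one. Against a log2 fold change of 1 in place of 0 it did not pass (adjusted p 0.170).

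TNFAIP3 measured 274, 314 and 222 CPM in the RIP, every library above the highest control of 160.0. Its RIP mean of 270.1 ± 46.3 CPM (SD, n = 3) was 192% of the control mean, which gave 0.93 as the log2 fold change (adjusted p 0.00438, SE 0.16; 6.21e-08 to 0.0252 over 12 alternatives). That value exceeded 1 without shCONTROL replicate 2 (1.03) and without RIP replicate 3 (1.06). The overlapping WAKMAR2 held 111 to 135 counts in the RIP, against 6390 to 8883 for TNFAIP3. NFKBIZ (ENSG00000144802, chr3:101827990-101861022) measured 20.6, 18.1 and 19.7 CPM in the RIP, against a highest control of 13.4, and its log2 fold change was 0.67 (adjusted p 0.00397, SE 0.11; all 12 alternatives passed, 6.93e-06 to 0.0241). The overlapping NXPE3 held 74 to 175 counts in the RIP, against 512 to 569 for NFKBIZ. Of all genes tested, 23.6% had a higher RIP fold change than NFKBIZ and 15.9% a higher one than TNFAIP3.

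Among the members, NFKBIE and NFKBIB were under-represented in the RIP. Of all genes tested in the RIP, 29.6% had a lower fold change than NFKBIE and 34.9% a lower one than NFKBIB. NFKBIE measured 20.1, 21.8 and 24.0 CPM there, every library under the lowest control of 31.2, and its log2 fold change was -0.64 (adjusted p 0.00483, SE 0.11; all 12 alternatives passed, 4.42e-05 to 0.0258). NFKBIB (ENSG00000104825, chr19:38899666-38908889) measured 19.3, 23.2 and 18.9 CPM, under the lowest control of 24.7. Its log2 fold change was -0.48 (adjusted p 0.0369, SE 0.15). This call did not hold in 5 of 12 alternatives: with the replicate number as a block (adjusted p 0.102), without shCONTROL replicate 1 (0.121) or 3 (0.104), and without RIP replicate 1 (0.0823) or 3 (0.0897). Over all 12 the adjusted p ran from 0.0104 to 0.121.

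**Figure D2:**
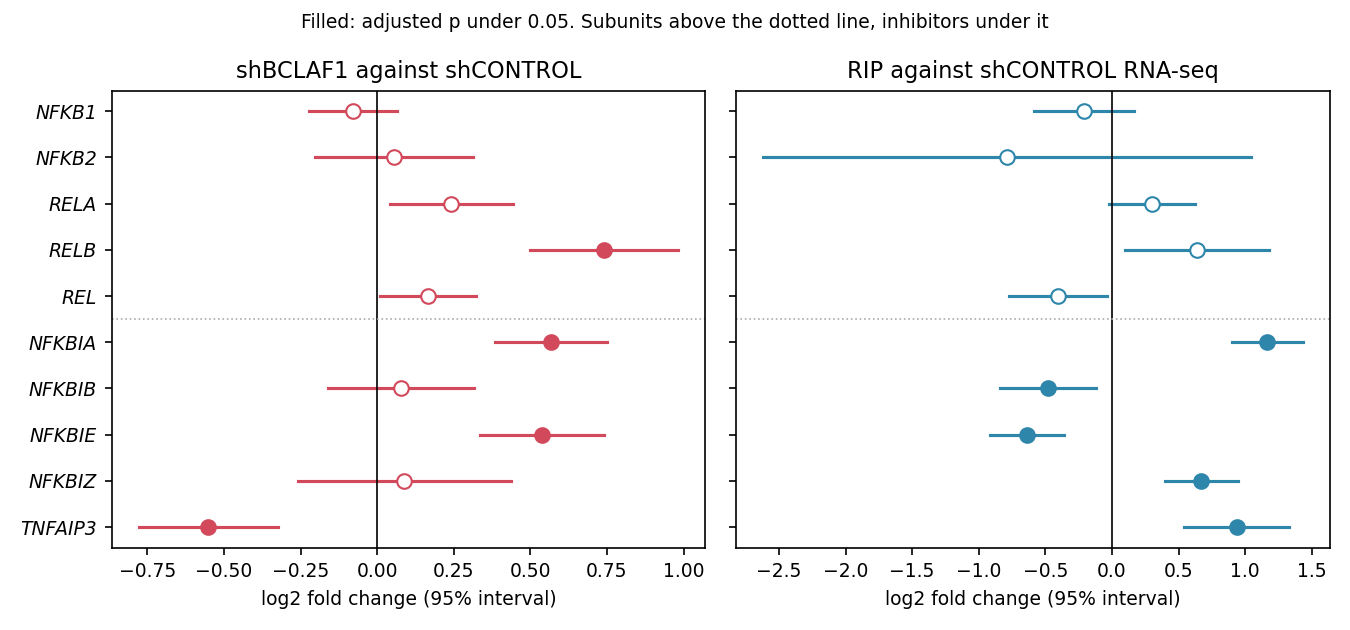
Log2 fold change of each member after knock-down (left) and in the RIP (right), with 95% intervals from the edgeR fit; the horizontal scales differ. Filled points passed at an adjusted p under 0.05, which holds for 1 subunit and 3 inhibitors on the left and for 0 subunits and 5 inhibitors on the right.

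Each of the 5 subunit transcripts had a larger SD in the RIP than in either RNA-seq group, as did NFKBIA and TNFAIP3 among the inhibitors. NFKB2 was the extreme case, at 8.73, 14.1 and 1.21 CPM in RIP replicates 1, 2 and 3, from 222, 398 and 35 counts, against 12.7 to 15.0 CPM in the controls. Its log2 fold change of -0.79 (95% interval -2.62 to 1.05, adjusted p 0.417) was -0.28 without RIP replicate 3 and -1.48 without RIP replicate 2. RELB measured 12.9, 22.6 and 17.8 CPM, all above the highest control of 12.5, with a log2 fold change of 0.63 (95% interval 0.09 to 1.18, adjusted p 0.0553). It passed in 4 of 12 alternatives, in a range of 0.0106 to 0.153, and the lowest p was that without RIP replicate 1. REL measured 42.7, 42.2 and 30.4 CPM, all under the lowest control of 48.7 (log2 fold change -0.41, 95% interval -0.78 to -0.04, adjusted p 0.0685). It passed in 5 of 12 alternatives (0.0295 to 0.182).

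RELA measured 66.7, 89.8 and 79.5 CPM in the RIP, with replicate 1 inside the control range (log2 fold change 0.30, adjusted p 0.107). Without that library it was 0.41 and passed (adjusted p 0.0216; 0.0216 to 0.269 over 12 alternatives). NFKB1 measured 44.7, 56.6 and 38.5 CPM, on both sides of its controls (log2 fold change -0.21, adjusted p 0.303). Without RIP replicate 2, the highest, it was -0.38 and passed (adjusted p 0.0207; 0.0207 to 0.612 over 12). The common biological coefficient of variation, the typical relative spread between replicates, was 0.313 in the RIP fit and 0.233 in the knock-down fit.

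The 4 members that passed after knock-down differed in their RIP values. NFKBIA was higher in both comparisons (log2 fold changes 0.57 and 1.17). TNFAIP3 was lower after knock-down and higher in the RIP (-0.55 and 0.93), and NFKBIE was higher after knock-down and lower in the RIP (0.54 and -0.64). RELB was higher after knock-down (0.74), and its RIP value of 0.63 did not pass. The shCONTROL libraries are the reference in both comparisons, so the paired values are not independent of each other.

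The steps that lead to NF-κB were followed through lists of other pathway genes. Of 27 receptors and adaptors tested, 10 were higher and 4 lower after knock-down (15.5% and 16.9% of all genes tested), and their median log2 fold change was 0.12 (0.02 for all genes). TLR4, the receptor for bacterial lipopolysaccharide, rose from 16.9 ± 0.831 to 47.3 ± 7.89 CPM (SD, n = 3 each; log2 fold change 1.48, adjusted p 6.81e-04). TNFRSF1B, a receptor for tumour necrosis factor, rose less (0.32, adjusted p 0.00142). TLR9, an endosomal receptor for DNA, fell from 23.9 ± 0.673 to 13.0 ± 0.567 CPM (-0.88, adjusted p 3.94e-04). The other genes that fell were CARD9, IRAK1 and TRAF3, named with the genes in the next sentences after their values were seen. One of the 10 higher genes, NOD2, was at or under 3 counts in every shCONTROL library.

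Among the 12 kinases, 5 were higher and 2 lower after knock-down, with a median log2 fold change of 0.25 (0.02 for all genes). Over all genes tested in the knock-down, 15.5% were called higher and 16.9% lower. IKBKE, an IκB kinase-related enzyme, rose by 0.75 on the log2 scale (adjusted p 7.15e-04) and CHUK, the IKKα subunit, by 0.36 (0.00228). IKBKG, MAP3K8 and TAB3 were also higher. TAB1, a partner of the kinase TAK1, was lower (-0.33, adjusted p 0.00320), as was CSNK2A1. Of 21 genes of the ubiquitin system, 4 were higher (RNF11, ZC3H12A, TAX1BP1 and SKP1) and 2 lower (TNIP1 and CUL1). These ubiquitin counts lay near the shares over all genes. RNF11 and TAX1BP1, whose proteins work in a complex with A20, had log2 fold changes of 0.71 and 0.50. ITCH, from the same list, had -0.014 and did not pass (adjusted p 0.919). TNIP1, an A20-binding protein, fell like TNFAIP3 itself (-0.41, adjusted p 0.00269). The gene of another A20-binding protein, TNIP2, had 0.32 and did not pass (adjusted p 0.125). Of 11 other IκB-like proteins and nuclear partners, 4 were higher (PDLIM2, BCL3, NFKBID and CREBBP) and 3 lower, RPS3 and HDAC1 among them. PDLIM2, a ligase that acts on nuclear p65, rose by 1.36 (adjusted p 4.74e-04), and BCL3, a nuclear partner of p50 and p52, by 0.79 (0.0150).

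Known target genes went both ways after knock-down. Of 46 listed, 31 were tested, and 7 were higher and 7 lower (15.5% and 16.9% of all genes tested). BCL3, among the higher, and TNIP1, among the lower, are also counted in the lists above. The median log2 fold change of the targets was 0.00 (0.02 for all genes). CXCL8, which encodes the neutrophil chemokine interleukin-8, rose from 18.3 ± 3.00 to 64.3 ± 9.04 CPM (SD, n = 3 each; log2 fold change 1.81, adjusted p 5.71e-04). TNFAIP2 rose by 0.79 (5.85e-04). CCL5, a chemokine for T cells and monocytes, fell from 269 ± 26.3 to 104 ± 7.45 CPM (-1.37, adjusted p 2.57e-04). CSF1 and LTA, counted among the 7 lower genes, were at or under 3 counts in every shBCLAF1 library. Immediate early genes, which respond within minutes to many of the same signals, were lower in 8 and higher in 3 of 21, with JUND (-0.89), ATF3 (-1.07) and FOS (0.63) having the smallest adjusted p-values (0.00124 to 0.00333).

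**Figure D3:**
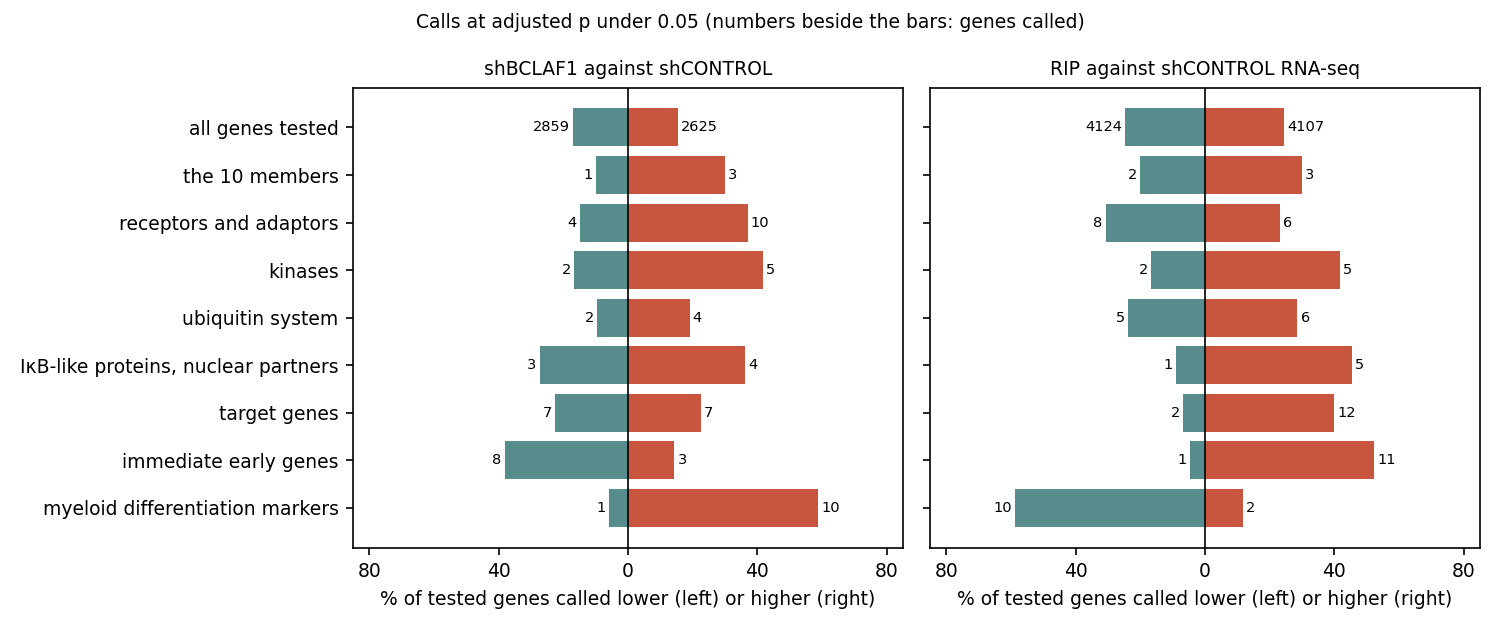
Share of tested genes called lower (left of 0) and higher (right of 0) in each list, with the number of genes beside each bar, for the knock-down and the RIP. The target genes are called 7 higher and 7 lower after knock-down, and 12 higher and 2 lower in the RIP.

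In the RIP, 12 of 30 target genes were higher and 2, SOD2 and BCL2L1, lower, with a median log2 fold change of 0.38 against -0.05 for all genes. Of all genes tested in the RIP, 24.6% were called higher and 24.7% lower, and the counts of the receptors and adaptors and of the ubiquitin genes lay near those shares. GADD45B, a stress-induced survival gene, had 1.38 (adjusted p 8.50e-04) and BCL2A1, an anti-apoptotic gene of the BCL2 family, 1.23 (0.00222). SOD2, the mitochondrial superoxide dismutase, had -1.14 (4.84e-04). Immediate early genes were higher in 11 of 21, led by FOSB (3.15), JUN (1.86) and ARC (3.59), and lower in 1, ZFP36. Of the 12 kinases, 5 were higher, among them CHUK (0.79), IKBKB (0.88) and MAP3K7 (0.56), which encode the IκB kinases and the kinase that activates them. MAP3K14 and MAP3K8 were the others, and TAB1 and CSNK2A1 were lower. Of 21 ubiquitin genes, 6 were higher and 5 lower, with the A20-binding protein gene TNIP2 at 1.77, CUL1 at 1.39 and the conjugating enzyme gene UBE2N at -1.26. Among the nuclear partners, NFKBIL1 (1.77), HDAC3 (0.74), EP300, HDAC1 and NFKBID were higher and PDLIM2 (-1.16) was lower, of 11 tested. Receptors and adaptors were higher in 6 of 26 and lower in 8, with TNFRSF1A, the main receptor for tumour necrosis factor, at -1.29, TRAF3 at 1.12 and NOD1 at 0.82. The myeloid maturation markers were lower in 10 of 17 and higher in 2 (MNDA and ITGAX), and their summed level was 1440 to 1540 CPM, with 4 at 0 in every library. The part of these shifts in the members' values was not tested.

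Among 11846 genes above 0 in all libraries and with at least 50 counts on average, the closest profiles to a member were sought by the root mean square difference of centred log2 CPM over the 9 libraries. For NFKBIA these were RABEP1 (0.0808), MAP2K3 (0.0843) and ZNF45 (0.0900), where the median gene was 0.586 away. For TNFAIP3 they were TBC1D8 (0.0960), SLC25A37 (0.100) and VPS37B (0.108), with a median of 0.691. For NFKB1 they were NUP62, CDR2L and CACUL1 (0.0530 to 0.0666). For NFKB2 they were GGT1 at 0.205, KCNMB3 at 0.317 and CYB561D1 at 0.341, with a median of 1.13. The NFKB2 profile leans on RIP replicate 3, at 1.21 CPM against 8.73 to 15.2 CPM in the other libraries.

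**Figure D4:**
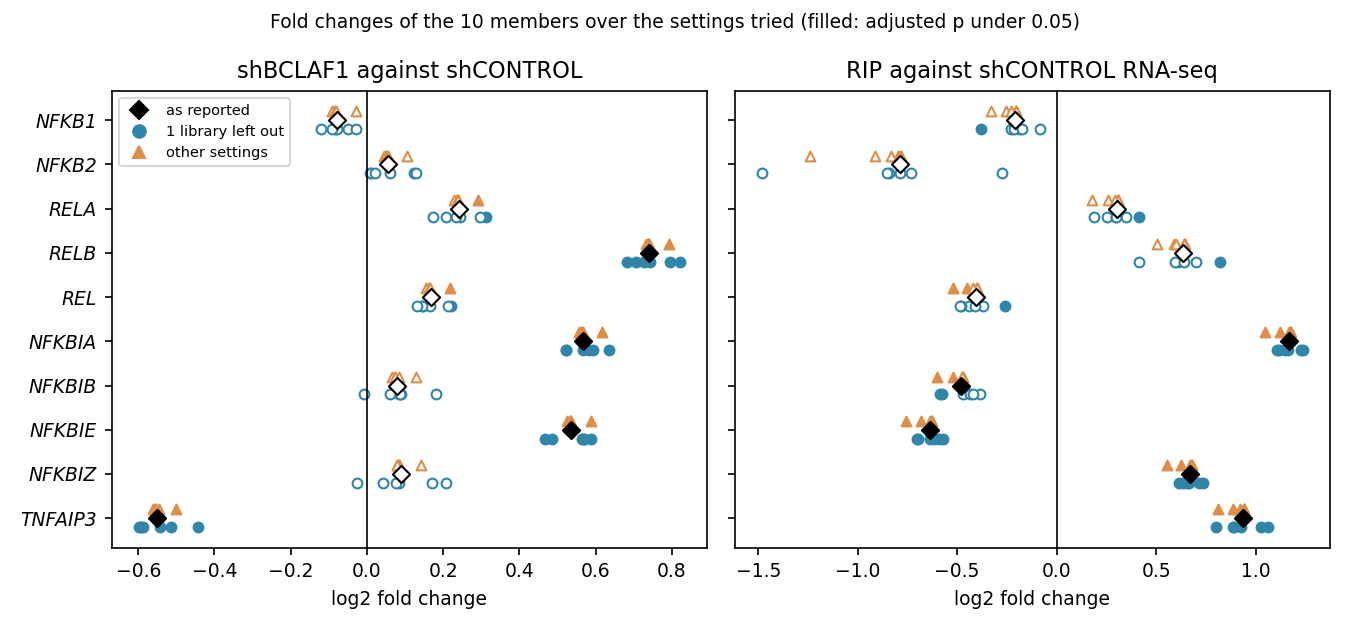
Log2 fold change of each member as reported (diamonds), with 1 library left out (circles) and under the other settings (triangles), filled where the adjusted p was under 0.05. RELB, NFKBIA, NFKBIE and TNFAIP3 on the left, and NFKBIA, NFKBIE, NFKBIZ and TNFAIP3 on the right, are filled at every setting drawn; the test of NFKBIA against a log2 fold change of 1 is not among them.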

How the data were processed

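The authors deposited 1 table of estimated counts (expected counts) per gene, with no normalization. The submitters' processing notes name STAR 2.7.11b, StringTie 2.2.3 and hg38, without roles or annotation. Per the labels, stranded libraries depleted of ribosomal RNA were sequenced as 50 bp pairs. Values were whole and were not rounded. The value 1 was held by only 6 to 17 genes in a library and the value 2 by 103 to 197, so the lowest values may not be whole reads. One entry named no gene, held 2.18% to 3.75% of the counts in 8 libraries, and was left out. RIP replicate 1 had no value in that entry. This library also had the fewest counts (25819144) and a TMM factor of 0.985, against 0.896 and 0.916 in RIP replicates 2 and 3. All 10 member identifiers matched the gene name table.

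Each comparison was fitted on its own 6 libraries with edgeR 4.0.16 in R 4.3.3 (default filter on low counts, TMM, prior count 2, quasi-likelihood F-test, group as the only term), with Benjamini-Hochberg adjustment over all genes. SEs came from the coefficient and its F statistic, and 95% intervals from its t distribution. The code was tested on simulated data. Floors of 3 counts equal 0.0819 to 0.116 CPM and cover counting error only. CPM per library used TMM over all 9. DESeq2 1.42.0 was an alternative.

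The 10 members and the lists were chosen with earlier results of these data known. Listed genes that were absent from the data or removed by the filter on low counts were not tested. From each list, up to 3 genes with the smallest adjusted p were named, among genes that passed, had at least 50 counts on average and were above 0 in all 6 libraries. Alternatives were total counts, DESeq2, other filters, 1 fit of all 9 libraries, the replicate number as a block, testing the RIP against a minimum log2 change of 1 and leaving out each library.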

Additional observations from a re-analysis of the deposited data

How the results depend on the processing

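The calls of RELB, NFKBIA, NFKBIE and TNFAIP3 after knock-down, and of NFKBIA, NFKBIE, NFKBIZ and TNFAIP3 in the RIP, held in all 12 alternatives to the edgeR fit at a minimum change of 0. The number of members called higher after knock-down was 5 with total counts and 3 to 5 with 1 library left out, RELA and REL being the additions without shBCLAF1 replicate 3. Fitting all 9 libraries at once called 1129 genes higher and 1318 lower after knock-down, in place of 2625 and 2859, with the same counts of members. In the RIP, with 1 library left out, 3 to 5 members were higher and 1 to 3 lower, and 1 or 2 were higher by at least 1 on the log2 scale. Without shCONTROL replicate 1 or 3 or RIP replicate 1, 1 member was lower in the RIP, and without RIP replicate 1, 5 were higher. Testing against a minimum log2 change of 1 left 732 genes higher and 1142 lower, in place of 1846 and 2253, and 0 members. With 1 library left out, the log2 fold change after knock-down ran from -0.0063 (without shCONTROL replicate 2) to 0.18 for NFKBIB and from -0.027 (without shBCLAF1 replicate 2) to 0.21 for NFKBIZ, neither of which passed in any fit. Total counts moved the median of all genes in the RIP from -0.05 to -0.17, and no member changed direction.

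For same-numbered libraries, the correlation of their deviations from the group means was 0.00 to 0.06 for the knock-down and -0.02 to 0.01 for the RIP. Differently numbered libraries gave -0.04 to 0.02 and -0.03 to 0.04. Such weak correlations cannot settle whether same-numbered libraries were paired, and the labels do not say how replicates were grown. With the replicate number as a block, 1 member was lower in the RIP in place of 2, NFKBIB no longer passing, and after knock-down 3 members were higher and 1 lower, as without it. In that fit 2271 genes were higher and 2538 lower after knock-down. The lowest count of a member was 35, for NFKB2 in RIP replicate 3, which held 31455005 counts in all, against 398 in RIP replicate 2, with 31568985. The causes of these shifts were not tested.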

Other observations

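Between the members themselves, the most alike profiles over the 9 libraries were those of REL and NFKBIB (root mean square difference of centred log2 CPM 0.141), NFKB1 and NFKBIB (0.200) and NFKB1 and REL (0.214). NFKBIA was closest to NFKBIZ (0.304), another gene higher in the RIP. These distances carry no test, and all members share the same libraries.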
